A study of Mus musculus with 2 samples.

Results

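Genes that are used to mark pancreatic duct cells or simple epithelia were followed in RNA from mouse pancreatic islets: Krt19, Krt8, Krt18, Sox9, Epcam, Cftr, Spp1, Anxa3 and Ambp. They were taken by gene symbol from the deposited expression table, which held all 9 members among 17245 genes. Islets are clusters of hormone-secreting cells, mostly insulin-producing β-cells, that lie in the exocrine pancreas and are freed from it by collagenase. The table had 2 columns, 1 library from wild-type (WT) islets and 1 from islets of mice that the labels describe as lacking cGAS, a sensor of DNA in the cytosol, in β-cells (KO), so no difference could be set against the spread between mice, and no test was run. Both libraries came from islets that were picked by hand and kept in culture medium with serum. The sources used here do not give the age, sex and strain of the mice, the number pooled, the deleted exon or the promoter driving recombination.

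Duct cells line the branching tubes that carry digestive enzymes out of the pancreas, and they add a bicarbonate-rich fluid through the chloride channel CFTR. They keep SOX9, a transcription factor of pancreatic progenitors, and the intermediate filament keratin 19. Keratins 8 and 18 are the basic pair of simple epithelia, a type II and a type I protein that form filaments only together, and they and the adhesion molecule EpCAM are also made by other pancreatic epithelial cells, endocrine cells included. Osteopontin (Spp1) is a secreted phosphoprotein of ducts that macrophages and other cells also make, annexin A3 (Anxa3) binds membranes in the presence of calcium, and Ambp encodes a precursor that is cut into α1-microglobulin and the protease inhibitor bikunin.

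Values are FPKM, which divide the reads of a gene by its length and by the library total, so levels of different genes of 1 library can be set side by side. The values of 17178 of 17245 genes (99.6%) were whole reads, within 1e-05 of a read plus a relative 1e-09, for library totals of 14537660 (KO) and 19097001 (WT), found by a search. Intervals in parentheses are exact Clopper-Pearson 95% intervals of an FPKM ratio from the smallest such reads, and they cover counting error only, not the variation between mice. Differences are log2((KO + 1)/(WT + 1)), which understates the change of low genes, and genes that reached 1 FPKM in either column, called expressed, were counted as higher or lower from a 2-fold difference on this scale. Cgas itself stood at 0.521 FPKM in the KO column and 0.205 FPKM in the WT column, a ratio of 2.55 (1.35 to 4.98), so the former is called the KO-labelled library, and every direction is between the 2 libraries as labelled. Of 12428 expressed genes, 6.98% were higher and 3.88% lower by 2-fold or more in the KO-labelled library, and the median difference was 0.077.

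Krt8 and Krt18 are neighbours on mouse chromosome 15, separated by 23873 nucleotides and read from opposite strands. The 250 bases before their start sites are shown because their proteins form 1 filament while their RNA differed unequally between the libraries, and those of Epcam and Ambp because these genes differed in opposite directions. All are from RefSeq on GRCm38.p6, 5′ to 3′ on the strand of the gene, and capitals mark matches, searched on both strands and with no overlap between motifs in these windows. The motifs were the TATA box with the letters TATAAA, the CCAAT box by the letters of its name, the GC box with the letters GGGCGG, and the AP-1 site with the letters TGANTCA, where N is any base.
Krt18 (chr15:102027966-102028215, plus strand): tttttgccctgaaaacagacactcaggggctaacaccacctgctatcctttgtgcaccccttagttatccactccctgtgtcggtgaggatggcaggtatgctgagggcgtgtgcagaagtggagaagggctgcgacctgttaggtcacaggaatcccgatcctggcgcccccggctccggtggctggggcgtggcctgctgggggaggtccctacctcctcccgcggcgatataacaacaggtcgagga
Krt8 (chr15:102004343-102004592, minus strand): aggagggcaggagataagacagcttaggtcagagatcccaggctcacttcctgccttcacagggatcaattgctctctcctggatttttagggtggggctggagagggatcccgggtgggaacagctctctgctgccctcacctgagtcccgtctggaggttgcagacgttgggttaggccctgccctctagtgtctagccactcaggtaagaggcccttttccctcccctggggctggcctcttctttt
Epcam (chr17:87635729-87635978, plus strand): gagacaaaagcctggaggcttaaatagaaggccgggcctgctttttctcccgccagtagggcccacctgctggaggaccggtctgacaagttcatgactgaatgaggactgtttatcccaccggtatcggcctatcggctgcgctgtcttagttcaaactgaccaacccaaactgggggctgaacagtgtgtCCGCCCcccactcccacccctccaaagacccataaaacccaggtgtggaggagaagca
Ambp (chr4:63154173-63154422, minus strand): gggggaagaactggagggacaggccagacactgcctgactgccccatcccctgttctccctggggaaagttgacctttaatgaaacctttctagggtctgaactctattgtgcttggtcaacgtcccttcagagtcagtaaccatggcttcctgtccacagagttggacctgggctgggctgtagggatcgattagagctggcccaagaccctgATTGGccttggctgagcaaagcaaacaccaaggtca
The window of Epcam held 1 GC box, from position -58 to -53 before the start site, and that of Ambp 1 CCAAT box, from -36 to -32. Neither keratin window held a match to these letters. Among 32851 RefSeq promoter windows of this length, 12.4% held the TATA letters, 33.8% the CCAAT letters, 32.7% the GC box and 6.75% the AP-1 letters. Promoter windows were matched for 6 of the 9 genes. GC content was 60.4% for Krt18, 58.0% for Krt8, 56.4% for Epcam and 54.4% for Ambp, against a median of 52.4% over all windows.

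The genes that define duct cells were barely present in either library, while the more widely expressed epithelial genes were abundant. Krt19, Sox9 and Cftr together made up 1.27% of the summed level of all 9 genes in the KO-labelled library and 0.714% in the WT library. Krt18 was the highest member in both libraries and Cftr the lowest. The data therefore go against reading the set as a measure of ducts, and it is named here as a list of duct and epithelial markers.

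**Figure D1:**
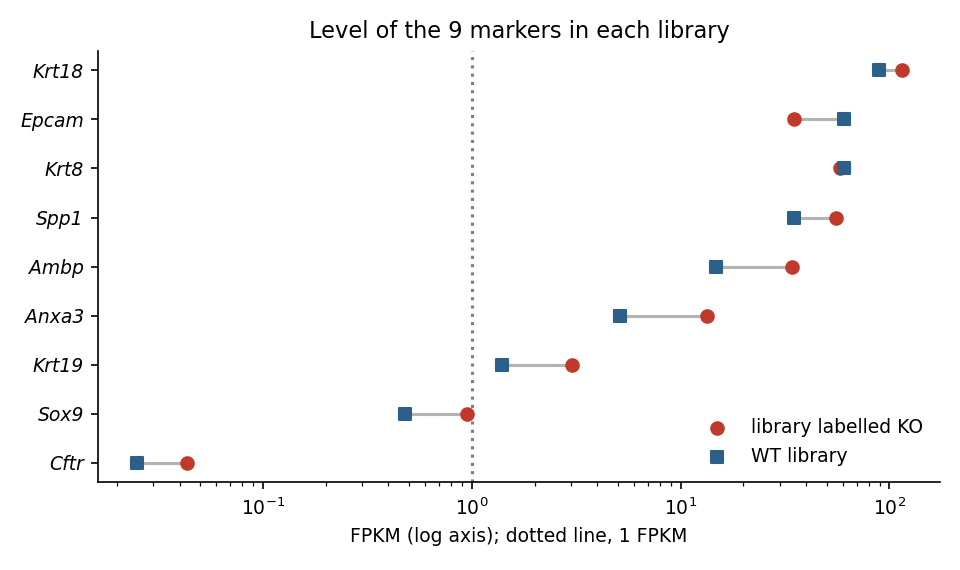
FPKM of the 9 markers (rows) on a log axis in the KO-labelled library (circles) and the WT library (squares), 1 library each, with the dotted line at 1 FPKM. Krt18 stands highest in both libraries at 114 and 89.1 FPKM, and Sox9 and Cftr lie below 1 FPKM in both.

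Among the duct-defining genes, Krt19 was at 3.01 FPKM in the KO-labelled library and 1.41 FPKM in the WT library, from at least 31 and 19 reads, a ratio of 2.14 (1.17 to 4.02) and a difference of 0.74. Krt19 encodes the type I keratin used to stain pancreatic ducts, and it lies on chromosome 11 from 100140810 to 100145926. It stood at percentile 22.9 of the expressed genes in the KO-labelled library and at percentile 10.9 in WT. Sox9, on chromosome 11 from 112782210 to 112787757, was at 0.946 and 0.480 FPKM, from at least 57 and 38 reads, a ratio of 1.97 (1.28 to 3.05). Both genes were higher in the KO-labelled library beyond counting error, at levels near or below the floor of 1 FPKM. The difference of Krt19 was 0.14 with a lowess trend on GC content and transcript length removed and 1.05, past 2-fold, with a pseudocount of 0.1 FPKM, and that of Sox9, 0.39 as reported, was 0.50 and 0.85. Cftr, on chromosome 6 from 18170687 to 18322770, was at 0.0436 and 0.0249 FPKM, from 4 and 3 reads, and its ratio of 1.75 had an interval from 0.296 to 12.0. A difference in Cftr was not detectable at this depth. Cftr overlaps the annotated pseudogene Gm15595, and none of the other 8 genes overlaps another RefSeq gene. In whole islets, fewer cells of a type and less RNA per cell cannot be told apart.

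Krt18 and Krt8, the keratin pair of simple epithelia, held 36.4% and 18.5% of the summed level of the 9 genes in the KO-labelled library and 33.3% and 22.7% in WT. Krt18 was at 114 FPKM in the KO-labelled library and 89.1 FPKM in the WT library, with a ratio of 1.28 (1.21 to 1.36). Krt8, its type II partner, was at 58.0 and 60.7 FPKM, with a ratio of 0.954 (0.893 to 1.02). In the deposited values Krt18 was thus higher in the KO-labelled library beyond counting error, and Krt8 was within it. Neither reached 2-fold. Within a library, which no scaling changes, Krt8 stood at 0.507 of the level of Krt18 (0.475 to 0.542) in the KO-labelled library and at 0.682 (0.642 to 0.723) in WT. The ratio of these ratios was 0.744, with an exact conditional 95% interval from 0.682 to 0.813. Krt18 changed sign with the processing: after removal of the GC and length trend it was at -0.22, against 0.35, and Krt8 was at -0.57, against -0.067. Krt8 has an annotated pseudogene, Krt8-ps on chromosome 7, and how reads that fit both were counted is not given.

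Keratin RNA in these islets came almost wholly from 3 genes. The third was Krt7, a type II keratin of simple and ductal epithelia that is not among the 9 members, at 134 FPKM in the KO-labelled library and 139 FPKM in WT, a ratio of 0.961 (0.899 to 1.03). Krt7, Krt8 and Krt18 made up 95.6% and 96.3% of the level of the 20 keratin genes with a value. Krt7 stood at 2.31 times Krt8 (2.15 to 2.48) in the KO-labelled library and at 2.29 times (2.16 to 2.44) in WT, and the ratio of these ratios was 1.01 (0.916 to 1.11). Type II keratins summed to 197 and 203 FPKM and type I keratins to 123 and 97.0 FPKM, with a ratio of 1.60 and 2.09. The lower ratio in the KO-labelled library came with the higher value of Krt18. Krt19 stood at 0.0264 of the level of Krt18 (0.0179 to 0.0375) and at 0.0158 (0.00948 to 0.0247), and the ratio of these ratios, 1.67, had an interval from 0.912 to 3.14. Of the 20 other keratins listed, 10 had a value, 5 reached 1 FPKM in either library, and none differed by 2-fold. Krt80, a type II keratin, was the widest at 2.90 and 1.75 FPKM, with a difference of 0.50. Krt222 was at 2.38 and 3.16 FPKM, Krt10, of the upper epidermis, at 2.83 and 2.85 FPKM, and Krt1, its epidermal partner, at 1.38 and 0.942 FPKM.

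**Figure D2:**
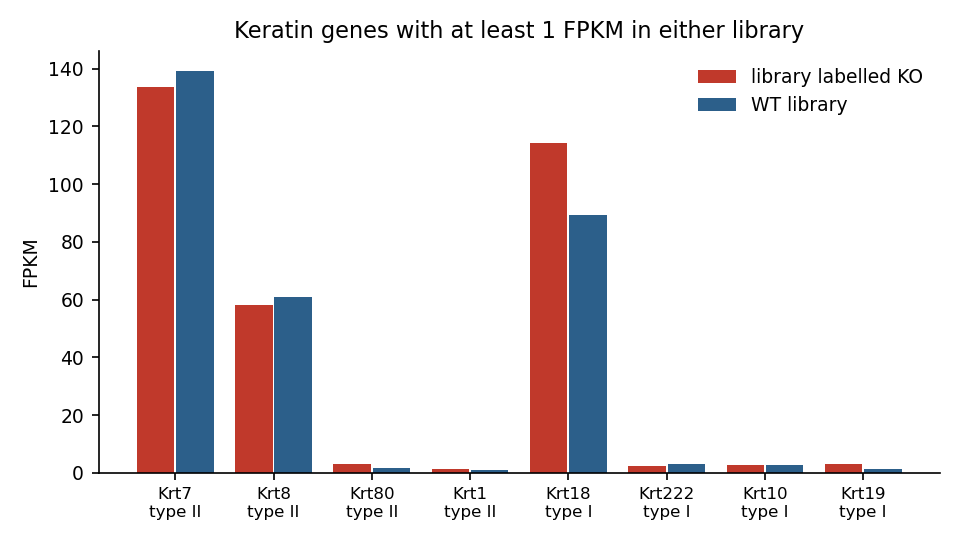
FPKM (bars from 0) of the 8 keratin genes that reached 1 FPKM, grouped as type II and type I, in the KO-labelled library (red) and the WT library (blue), with no replicate and so no error bar. Krt7, Krt8 and Krt18 tower over the rest. In these deposited values Krt18 is the 1 of the 3 whose bars differ beyond counting error (ratio 1.28).

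In the deposited values Epcam was the 1 member that was lower in the KO-labelled library beyond counting error. It encodes a homophilic adhesion molecule of epithelial cells and lies on chromosome 17 from 87635979 to 87651127. Epcam was at 34.8 FPKM in the KO-labelled library and 60.9 FPKM in the WT library, 1.75-fold lower (1.63 to 1.89), with a difference of -0.79 that was short of 2-fold. In the WT library its level was within counting error of that of Krt8, at a ratio of 1.00 (0.945 to 1.06), and in the KO-labelled library it was 0.600 of it (0.554 to 0.650). The ratio of these ratios was 0.598 (0.542 to 0.661), a value that no scaling of a library changes. Epcam was below 0 under all 8 alternative settings, from -1.06 to -0.73, the lowest being its value with the GC and length trend removed, which passed 2-fold.

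Genes that act with Epcam lay on both sides of 0. Of 12 expressed genes of its protein partners and of the membrane proteases and their inhibitors, 6 were above and 6 below 0, none differed by 2-fold, and the median was -0.0053. The tetraspanin Cd9 was at 68.5 against 47.5 FPKM, the protease inhibitor Spint2 at 130 against 124 FPKM and the membrane protease Prss8 at 2.08 against 2.93 FPKM. Among 29 genes of adherens junctions, tight junctions and desmosomes 22 were below 0, against a background in which 54.4% of genes were above 0, and the median was -0.32. The 2 at least 2-fold lower on the log2(FPKM + 1) scale were the keratin-anchoring protein desmoplakin, Dsp, at 4.81 against 12.4 FPKM (2.57-fold, 2.33 to 2.84) and the desmosomal cadherin Dsg2 at 3.72 against 8.57 FPKM (2.30-fold, 2.02 to 2.63), and none was 2-fold higher. By the plain ratio of FPKM the tight-junction protein Ocln was lower by more than either, at 0.961 against 2.83 FPKM (2.94-fold, 2.20 to 3.99), and the polarity protein Pard6b was at 1.96 against 3.99 FPKM (2.03-fold, 1.60 to 2.59). Under each of the 3 scalings 5 of the 29 were lower, and with a pseudocount of 5 FPKM none was. E-cadherin, Cdh1, was at 40.7 against 79.9 FPKM, β-catenin, Ctnnb1, at 84.1 against 134 FPKM and the tight-junction protein Cldn4 at 26.3 against 52.5 FPKM. The median of these junction genes lay between -0.47 and -0.20 under the 8 alternative settings. Among 16 epithelial splicing and transcription factors and related epithelial genes the median was 0.12, with Klf5 at 3.54 against 8.76 FPKM (2.47-fold lower, 1.94 to 3.17), Klf4 at 4.17 against 1.92 FPKM, the surface protein Cd24a at 71.7 against 40.8 FPKM and the exchange factor Arhgef16 at 40.1 against 31.0 FPKM. Islet endocrine cells also express junction genes, and of 20 β-cell markers 6 were lower and 1 was higher by 2-fold or more in the KO-labelled library; their median was -0.50. Their part in the values of Epcam and the junction genes was not tested.

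**Figure D3:**
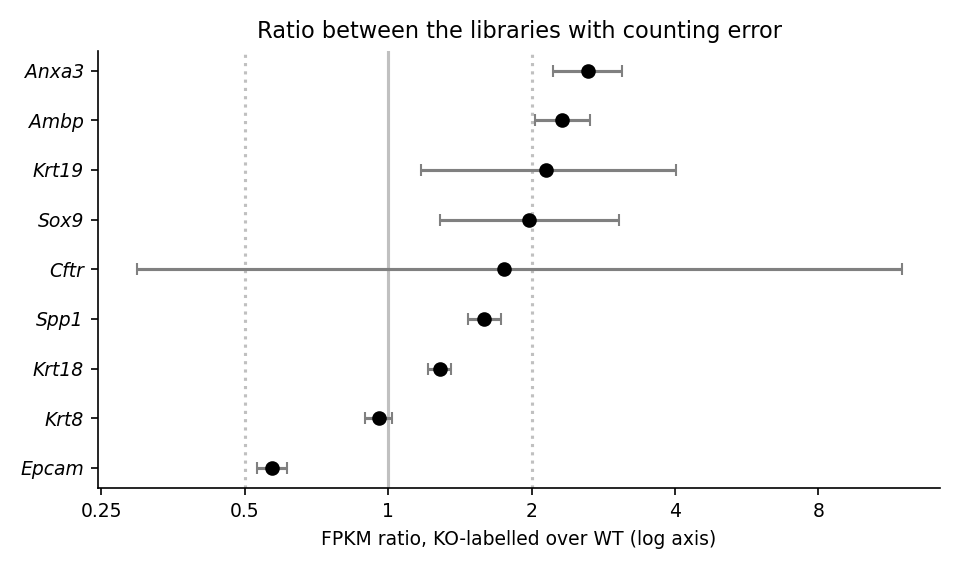
Ratio of FPKM between the KO-labelled library and the WT library for each marker (points, log axis) with its exact 95% interval for counting error (bars), the solid line at 1 and dotted lines at 2-fold. In the deposited values the intervals of 6 genes lie above 1, that of Epcam below 1, and those of Krt8 and Cftr span 1.

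The secreted and membrane-binding markers were all higher in the KO-labelled library. Anxa3, on chromosome 5 from 96793385 to 96845968, was at 13.4 FPKM in the KO-labelled library and 5.11 FPKM in the WT library, 2.62-fold higher (2.22 to 3.10), with a difference of 1.24. Ambp, on chromosome 4 from 63143275 to 63154172, was at 34.1 and 14.7 FPKM, 2.32-fold higher (2.03 to 2.65), with a difference of 1.16. Spp1, on chromosome 5 from 104435111 to 104441053, was at 55.6 and 34.9 FPKM, 1.59-fold higher (1.47 to 1.73), with a difference of 0.66. Anxa3 and Ambp were the 2 of 7 expressed members past 2-fold, none was 2-fold lower, and 6.98% of all expressed genes were past 2-fold in the same direction. With 7 genes and 1 library per genotype this share says little about the set. The median of the 7 was 0.66, against 0.077 for all expressed genes, and with Sox9 and Cftr, which were below the floor, the median of all 9 was 0.39. Relative to Krt8 in the same library, Anxa3 was higher by 2.75 times (2.30 to 3.29) in the KO-labelled library than in WT, Ambp by 2.43 times (2.09 to 2.82) and Spp1 by 1.67 times (1.50 to 1.86).

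Ambp held its call less firmly than Anxa3. It was past 2-fold under 6 of 8 alternative settings, and its difference was 0.63 once the GC and length trend was removed. Anxa3 was past 2-fold under 7 of 8, and at 1.16 with that trend removed; with a pseudocount of 5 FPKM it was at 0.86. Spp1 stayed above 0 and short of 2-fold under all 8, between 0.51 and 0.69.

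The order of the 9 genes was the same in both libraries apart from Epcam. In the KO-labelled library it ran Krt18, Krt8, Spp1, Epcam, Ambp, Anxa3, Krt19, Sox9 and Cftr, and in WT Epcam stood second. Neighbours that did not differ beyond counting error were Krt8 and Spp1 (1.04, 0.968 to 1.12) and Epcam and Ambp (1.02, 0.923 to 1.13) in the KO-labelled library, and Epcam and Krt8 in WT. In WT, Spp1 stood at 2.37 times the level of Ambp (2.10 to 2.68).

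Genes around each of these 3 markers were listed in the same way. The 12 expressed annexins and S100 proteins had a median of 0.49, and 2 were higher and none lower by 2-fold or more: Anxa2 at 41.4 against 19.1 FPKM (2.17-fold, 1.96 to 2.39) and S100a10, with which it forms a complex, at 117 against 43.3 FPKM (2.70-fold, 2.44 to 3.00). With the GC and length trend removed the median of this list was 0.035 and none was 2-fold higher, with Anxa2 at 0.67 and S100a10 at 0.81. Anxa1 was at 9.47 against 5.03 FPKM, while Anxa5, the highest annexin, was at 122 against 146 FPKM and the calcium-binding S100a11 at 258 against 155 FPKM. The heavy chains that bikunin joins in the liver were near or below 1 FPKM, with Itih2 the highest of Itih1 to Itih4 at 0.727 against 1.16 FPKM, and of 4 expressed genes of that list the acinar trypsin inhibitor Spink1 was lower, at 2.77 against 16.4 FPKM (5.91-fold, 3.55 to 10.5). Among 11 expressed osteopontin receptors and relatives the median was 0.15. The integrin subunit Itga5 was at 6.71 against 2.39 FPKM (2.81-fold higher, 2.21 to 3.59) and transglutaminase Tgm2, which cross-links osteopontin, at 18.9 against 8.37 FPKM (2.26-fold higher, 2.03 to 2.51), while Itgav, the partner of several osteopontin-binding integrins, was at 5.56 against 12.6 FPKM (2.27-fold lower, 2.10 to 2.46). The main shared subunit Itgb1 was at 45.0 against 60.2 FPKM and the kinase Fam20c, which phosphorylates secreted proteins, at 53.9 against 65.7 FPKM.

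Other genes of ducts gave a mixed picture. Of 15 expressed duct markers outside the 9, 1 was at least 2-fold higher, Tstd1, at 11.5 against 3.90 FPKM (2.95-fold, 2.02 to 4.37), and 1 at least 2-fold lower, the trefoil peptide Tff2, at 3.49 against 11.7 FPKM (3.36-fold, 2.23 to 5.22), with a median of 0.50. Ly6e, a membrane-anchored protein found in many cells, was at 163 against 89.9 FPKM. Of 15 expressed genes of bicarbonate and fluid transport, 3 were higher and none lower by 2-fold or more: the carbonic anhydrase Car4 at 19.7 against 7.36 FPKM (2.68-fold, 2.28 to 3.15), the water channel Aqp1 at 28.4 against 13.6 FPKM (2.09-fold, 1.90 to 2.30) and the chloride channel Ano1 at 3.70 against 1.35 FPKM (2.75-fold, 2.24 to 3.39). With the trend removed none of the transport genes was 2-fold higher and 1 was 2-fold lower. Car4 was then at 0.94, Aqp1 at 0.70 and Ano1 at 0.996. Atp1b1, a β subunit of the sodium pump, was at 78.6 against 125 FPKM. The secretin receptor Sctr, at 0.178 against 0.0984 FPKM, and Car2, at 0.565 against 0.511 FPKM, both hallmarks of duct cells, were below 1 FPKM like Cftr. Of 17 expressed duct transcription factors and Notch genes, 2 were at least 2-fold lower, Glis3 at 1.39 against 5.03 FPKM (3.62-fold, 3.22 to 4.07) and Prox1 at 3.64 against 8.90 FPKM (2.44-fold, 2.10 to 2.85), both of which endocrine cells also express. Tead1, a partner of YAP, was at 3.90 against 8.38 FPKM, Foxa2, of foregut epithelia, at 29.1 against 33.7 FPKM, and Pkd1, polycystin 1, at 15.8 against 14.3 FPKM.

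**Figure D4:**
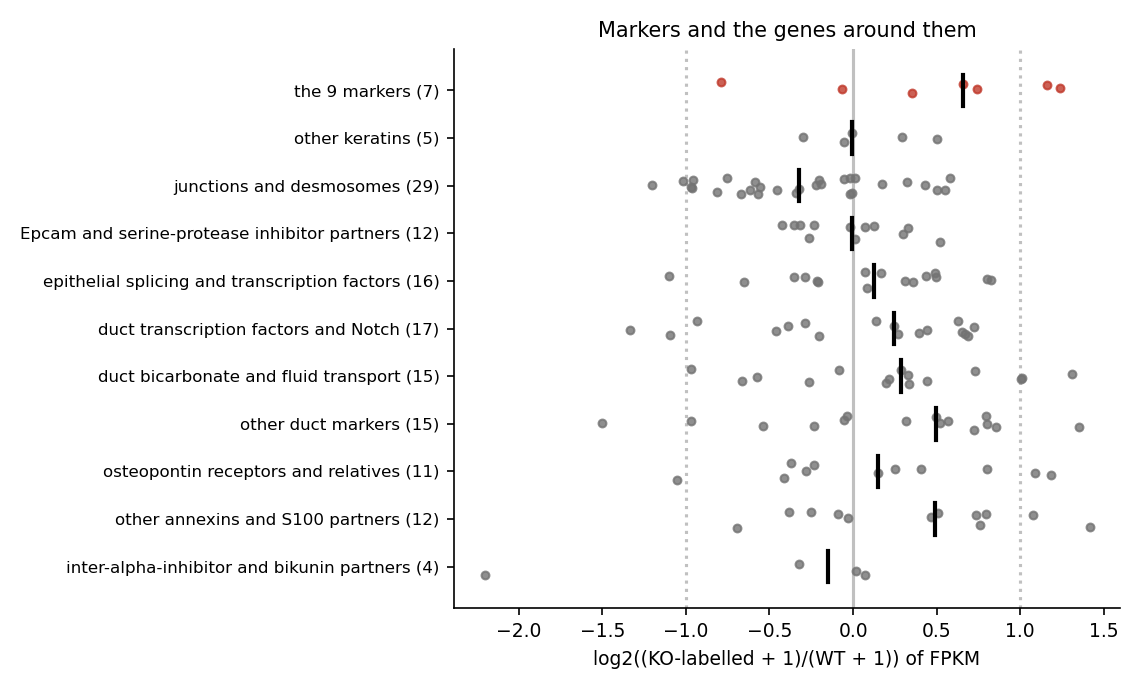
Differences, log2((KO-labelled + 1)/(WT + 1)) of FPKM, for the expressed members (red) and the expressed genes of 10 lists around them (grey; number of genes in parentheses), with each list's median as a black bar and dotted lines at 2-fold. The junction and desmosome genes lie mostly left of 0, with a median of -0.32, and the 7 expressed markers have a median of 0.66.

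Over the 10 lists together, 8 of 127 expressed genes (6.30%) were higher and 8 (6.30%) lower by 2-fold or more, and their median was 0.0092, against 6.98% and 3.88% of all genes. With the GC and length trend removed none of the 127 was 2-fold higher and 6 were 2-fold lower, against 3.23% and 2.90% of all genes.

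Markers of other cells that islet preparations hold also differed between the libraries, some in the direction of most of the 9 genes and some not. Acinar markers summed to 194 FPKM in the KO-labelled library and 2614 FPKM in WT, 13.4-fold lower, with 21 of 22 at least 2-fold lower, while none of the 9 markers was 2-fold lower. The low acinar markers Prss1 and Ptf1a were listed at 0 in the KO-labelled library, and no acinar marker was at 0 in WT. In WT these 2 genes rested on at least 1 and 11 reads, so the 0 of Prss1 says little. Endothelial markers summed to 1059 and 471 FPKM, with 9 of 20 at least 2-fold higher and none lower, among them Plvap at 284 against 110 FPKM. Macrophage and dendritic-cell markers summed to 496 and 239 FPKM, with 7 of 18 higher and none lower and a median of 0.77. Removal of the GC and length trend left 1 of the 18 higher and a median of 0.46. Fibroblast, stellate-cell and pericyte markers summed to 452 and 233 FPKM, with 4 of 19 higher and none lower. In the endothelial, myeloid and stromal lists no marker was at 0 in either library. Mesothelial cells also make Krt8, Krt18 and Krt19: their markers summed to 24.0 and 23.3 FPKM, most of it Msln, at 19.1 against 20.9 FPKM. Of 3 expressed mesothelial markers 1 was at least 2-fold higher, Nkain4, at 2.37 against 0.616 FPKM (3.85-fold, 2.05 to 7.64), and none lower. Nkain4 was at 0.47, against 1.06, with the trend removed. The other 2 were below 0, with Gpm6a at 1.06 against 1.66 FPKM (1.56-fold lower, 1.12 to 2.20). Gpm6a was at -0.042, against -0.37, with the trend removed. The median of the 3 was -0.13. Of 10 mesothelial markers 3 were at 0 in WT (Lrrn4, Wt1 and Bnc1) and none in the KO-labelled library. There Lrrn4 rested on at least 11 reads, and Wt1 and Bnc1 on at least 1 read each. Where the other library may hold as few as 1 read, a 0 says little. The uroplakins Upk3b and Upk1b, which mark mesothelium, were below 1 FPKM in both libraries, at 0.642 against 0.0257 FPKM and 0.366 against 0.0279 FPKM. Both were higher in the KO-labelled library, and in WT each rested on at least 1 read. The mesothelial list thus had genes on both sides of 0. Spp1, Anxa3 and the low duct genes were higher in the library in which the endothelial, myeloid and stromal markers were higher, and the part of those cells, and of mesothelial cells, in their values was not tested.

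**Figure D5:**
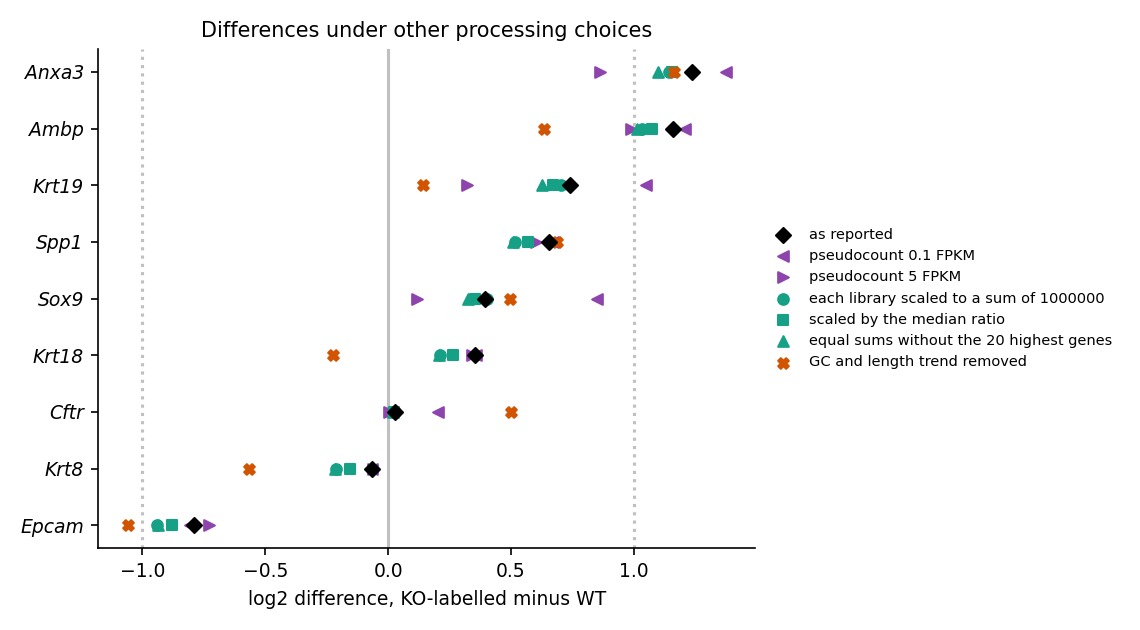
Differences of the 9 markers (rows; log2 scale) as reported (diamonds) and under 2 other pseudocounts, 3 scalings and removal of the trend on GC content and length, with dotted lines at 2-fold. Epcam stays left of 0 and Anxa3 right of 0.8 under all settings shown, and Krt18 crosses 0 with the trend removed, from 0.35 to -0.22.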

How the data were processed

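RNA was measured in 2 islet samples, and the label of genotype gave each its group. A SMARTER mRNA kit was used on total RNA, per the labels' protocols. The authors deposited 1 table of FPKM values with 1 column per library. Per the submitters' processing notes the genome build was mm10 (GRCm38). The sources used here name no aligner, counter, strand setting, annotation or filter. The deposited values were used without further scaling.

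Whole reads were recovered by a search over totals from 5000000 to 40000000 and lengths from 60 to 30000 nucleotides. The smallest reads that give both values were used, so the true reads can be a whole multiple and intervals too wide. The search and the 2-fold calls were tested on simulated data. PCR copies without molecular identifiers do not count as independent molecules. No count test was run, because the unit is FPKM with no replicate.

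Alternatives were pseudocounts of 0.1 and 5 FPKM, no floor and a floor of 5 FPKM, scaling to a sum of 1000000, by the median ratio or to equal sums without the 20 highest genes, and removal of a lowess trend (fraction 0.3, 3 iterations, statsmodels 0.14.6) on GC content and length of the longest GENCODE M21 transcript, for 98.2% of expressed genes. Python 3.11.15 and scipy 1.17.1 were used. The members and lists were chosen with earlier results of these data known. The text names all members and Cgas. Of each list around them it names the 3 expressed genes with the widest difference and the 2 with the highest mean. Plvap, Msln, Nkain4 and Gpm6a follow the same rule, and a few of the genes so chosen are left out here. Sctr, Car2, Ocln, Pard6b, Upk3b, Upk1b, Lrrn4, Wt1, Bnc1, Prss1 and Ptf1a, and the ratios to Krt8, were chosen after their values were seen. No gene is named for likeness to a member, since 2 libraries give 1 ratio.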

Additional observations from a re-analysis of the deposited data

How the results depend on the processing

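The number of the 9 markers past 2-fold was 2 higher and 0 lower as reported. It was 0 higher with a pseudocount of 5 FPKM, and 1 higher and 1 lower with the GC and length trend removed; it stayed within 1.5 times under the other 6 alternatives. Over the lists around them, 8 genes were higher and 8 lower as reported, against 1 and 1 with a pseudocount of 5 FPKM, 4 and 14 at a sum of 1000000, 5 and 13 by the median ratio, and 4 and 13 with equal sums without the 20 highest genes; with the trend removed 0 were higher. Over all genes, 868 were higher and 482 lower, 64.3% of calls higher, against 693 and 796 (46.5%) at a sum of 1000000, 662 and 610 (52.0%) by the median ratio, 555 and 714 (43.7%) with equal sums without the 20 highest genes, 394 and 354 (52.7%) with the trend removed, 1556 and 716 with a pseudocount of 0.1 FPKM and 305 and 181 with one of 5 FPKM. At a sum of 1000000 Krt8 was at -0.21, Krt18 at 0.21, Epcam at -0.94 and Spp1 at 0.52, and with equal sums without the 20 highest genes at -0.21, 0.20, -0.94 and 0.51. By the median ratio Krt18 was at 0.27. With the trend removed Krt8 was at -0.57, Krt18 at -0.22, Epcam at -1.06 and Ambp at 0.63, and with a pseudocount of 5 FPKM Anxa3 was at 0.86. Krt19 was at 1.05 with a pseudocount of 0.1 FPKM, past 2-fold, and at 0.14 with the trend removed. With a floor of 5 FPKM Krt19, Sox9 and Cftr gave no value. The other differences moved by less than their counting intervals. Why the trend with GC content and length differs between the libraries was not tested. Depth limits Cftr, Sox9 and Krt19, and with 1 library per genotype no replicate could be left out. No paired analysis was possible because each genotype has 1 library.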
